A study of Mus musculus with 6 samples.

Results

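The BCL2 family genes examined here are 10 genes listed by symbol: Bcl2, Bcl2l1, Bcl2l2, Mcl1, Bax, Bak1, Bok, Bcl2l11, Bid and Bad. They are 10 of the 47643 gene identifiers counted in each library, and all 10 were found. The libraries were made from total RNA of dorsal root ganglia taken at embryonic day 13 from CD-1 mice, and the design text speaks of uninjured neurons. In 3 libraries the cells had received lentivirus for a control hairpin (shControl), and in the other 3 lentivirus for a hairpin against UHRF1 (shUHRF1). UHRF1 recognises hemimethylated CpG sites and brings DNMT1 there to copy methylation onto the new strand. Both groups therefore carried a lentiviral hairpin. The sources used here do not give the hairpin sequences, the share of cells transduced or the time from transduction to harvest. The labels do not say whether replicates came from separate cultures, so p-values measure only how far these libraries differ from each other, a spread that may be technical.

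Proteins of the BCL2 family decide whether the outer mitochondrial membrane is opened and cytochrome c released, the step that activates caspases. Pro-survival proteins (BCL2, BCL-XL, BCL-W and MCL1) hold the effectors BAX and BAK in check, and BH3-only proteins such as BIM, BID and BAD either bind the pro-survival proteins or activate the effectors directly. In developing sensory neurons, which die when deprived of nerve growth factor, this balance is known to set survival, with BAX required for that death.

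The comparison asked how these transcripts differ between neurons with the hairpin against Uhrf1 and neurons with the control hairpin. Libraries held 15599776 to 22382813 reads in genes. Uhrf1 itself had 8, 6 and 5 reads in shControl and 2, 1 and 5 in shUHRF1. The edgeR estimate for Uhrf1 was -1.39 ± 0.62 (SE) on the log2 scale, with an unadjusted p of 0.0545. A two-sided exact permutation test on depth-scaled counts gave p = 0.2, where 3 against 3 libraries cannot give less than 0.1. Neuronal markers were abundant throughout: the 14 listed genes summed to 25530 to 30870 CPM (reads of a gene scaled to a common library size after correction for composition) in shControl and 20500 to 26840 CPM in shUHRF1, and 1 of the 14, Tubb3, fell. Many markers of glia, fibroblasts and macrophages moved with the hairpin. For endothelial markers the share called, 25% of those tested, was near the 24.0% of all tested genes. Among 12 glial markers 7 rose and 1 fell of 10 tested, among 12 fibroblast markers 10 of 11 tested rose, among 12 macrophage markers 5 of 8 tested rose, and among 10 endothelial markers 1 of 4 tested rose. Many of these were nearly absent in shControl and entered the test only through shUHRF1, which tilts such counts upward. Over all tested genes, by the test given below, 11.6% rose and 12.4% fell. The whole lists summed to 445.3 to 530.7 CPM (glial), 824.8 to 999.1 CPM (fibroblast), 6.34 to 12.8 CPM (macrophage) and 36.8 to 39.4 CPM (endothelial) in shControl, and to 172.7 to 480.9, 1074 to 1307, 17.6 to 46.8 and 28.6 to 42.9 CPM in shUHRF1. Tcf21 was at 0 reads in every library, Emcn at 0 in every shControl library, and the macrophage marker Cx3cr1 and the endothelial markers Cdh5 and Cldn5 had at most 18, 6 and 2 reads in any library. The part of these cells in the results below was not tested, and in bulk RNA fewer cells of a type and less RNA per cell cannot be told apart.

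Among the 10 BCL2 family genes, the effector gene Bok fell and the BH3-only gene Bcl2l11, which encodes BIM, rose, while the other 8 did not pass the test. All 10 passed the filter on low counts. The test was edgeR's quasi-likelihood F test with Benjamini-Hochberg adjustment over 15573 genes, in which 11.6% of genes rose and 12.4% fell (24.0% in all). With upper-quartile scaling the balance turned, with 2512 genes higher and 1378 lower, against 1807 and 1928. With 1 gene higher and 1 lower, the family's count of 2 of 10 is close to that background. The median log2 fold change (shUHRF1 relative to shControl, here and below) was -0.19 over the 10 genes and 0.02 over all tested genes. CPM values did not overlap between the groups for 4 of the 10 (Bok, Bax and Bid lower, Bcl2l11 higher), against 44.0% of all tested genes.

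**Figure D1:**
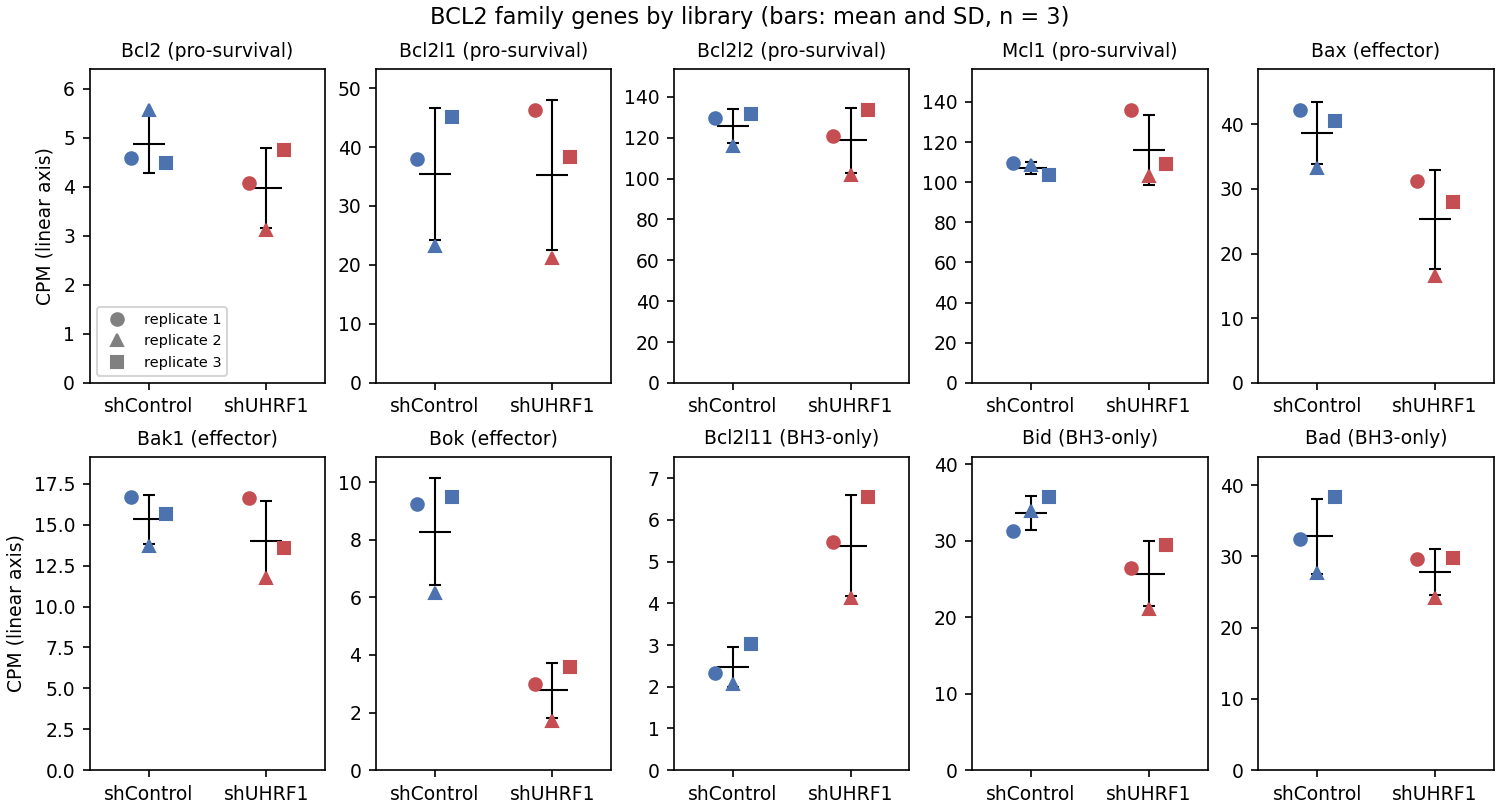
CPM on linear axes from 0 for each of the 10 genes, with 1 point per library (symbol shape gives the replicate number) and black bars for the mean and SD of 3 libraries. Bok lies lower in every shUHRF1 library (1.71 to 3.58 CPM) than in any shControl library (6.15 to 9.47 CPM), and Bcl2l11 lies higher (4.12 to 6.54 against 2.07 to 3.01 CPM).

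The promoters of the genes that changed are shown because UHRF1 acts on methylated CpG sites, although methylation was not measured here. Each line gives 300 bases from RefSeq (GRCm38.p6), from 250 bases before the start to 50 after it, with CG dinucleotides in capitals. The Bok window is chr1:93685325-93685624 and the Bcl2l11 window, the nearer of its 2 windows to the annotated gene start, is chr2:128125788-128126087, both on the plus strand. The Bok window is set by the RefSeq start and ends before the annotated gene start given below (93685660).
Bok: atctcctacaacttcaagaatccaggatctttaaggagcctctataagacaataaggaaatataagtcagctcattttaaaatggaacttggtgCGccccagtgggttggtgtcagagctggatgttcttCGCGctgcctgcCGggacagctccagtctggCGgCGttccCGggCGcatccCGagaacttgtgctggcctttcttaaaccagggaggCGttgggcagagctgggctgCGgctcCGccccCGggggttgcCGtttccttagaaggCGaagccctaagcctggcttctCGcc
Bcl2l11: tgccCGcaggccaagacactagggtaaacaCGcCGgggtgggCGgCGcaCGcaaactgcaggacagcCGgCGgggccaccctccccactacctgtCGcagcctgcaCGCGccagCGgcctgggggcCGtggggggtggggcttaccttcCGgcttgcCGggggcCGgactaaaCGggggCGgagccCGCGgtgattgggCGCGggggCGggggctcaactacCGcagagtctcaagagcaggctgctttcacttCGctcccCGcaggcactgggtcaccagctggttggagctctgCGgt
The Bok window holds 16 CpG sites, more than 67.0% of the 32851 windows of this length, and the Bcl2l11 window holds 27, more than 84.5%. The median window holds 7. Of the other family genes, Bcl2 has 44 CpG sites and Mcl1 33 in their windows, and Bcl2l2 has 9. Searched on both strands, the forkhead (FOXO) word GTAAACA occurs once in this Bcl2l11 window and in no window of the other 9 genes, where 3.65% of all windows hold it. The AP-1 word TGACTCA, in 5.2% of windows, occurs in none of the family's windows. The E-box CACGTG, in 7.15% of windows, occurs 2 times in the Bax window and in no other of the family, and the GC box GGGCGG, in 35.7% of windows, occurs 1 time for Bok and 3 times for Bcl2l11, and in the windows nearest the gene start 7 times for Bcl2, 4 for Bad, 3 each for Bax and Bid, 1 each for Mcl1 and Bcl2l2 and 0 for Bcl2l1 and Bak1. These are matches of letters, and neither binding nor methylation at them was measured.

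Bok encodes a BAX-like effector that resides largely at the endoplasmic reticulum and is known to be degraded continually in healthy cells. Its gene (ENSMUSG00000026278.14) lies on chromosome 1, 93685660 to 93695764, plus strand, GRCm38. The shControl libraries numbered 1, 2 and 3 held 159, 95 and 198 reads of it, and the shUHRF1 libraries 67, 29 and 74. Scaled for depth these were 9.23, 6.15 and 9.47 CPM against 3.01, 1.71 and 3.58 CPM. Every shUHRF1 library lay below every shControl library, and within each group replicate 2 was the lowest. The log2 fold change was -1.57 ± 0.31 (SE), with a 95% interval of -2.29 to -0.86 and an edgeR adjusted p of 0.0104, which corresponds to a level 0.336 times that of shControl. The size of this difference exceeded that of 93.8% of tested genes. Within the replicate numbers the log2 differences were -1.62, -1.85 and -1.40. Bok passed in each of the 6 fits with 1 library left out, with log2 fold changes of -1.81 to -1.35.

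Bax, the effector that loss-of-function studies tie to developmental neuron death, is on chromosome 7 (45461697 to 45466898, minus strand). It measured 42.2, 33.2 and 40.6 CPM with the control hairpin and 31.2, 16.6 and 27.9 CPM with shUHRF1. The groups did not overlap, and replicate 2 was again the lowest library of each. The log2 fold change was -0.61 ± 0.23 (SE), with a 95% interval of -1.14 to -0.08, and Bax did not pass (edgeR adjusted p = 0.091, unadjusted p = 0.0289). In the fit that pairs libraries by replicate number it passed, with a log2 fold change of -0.65 and an adjusted p of 0.0156. It also passed with no low-count filter (adjusted p = 0.0214) and without shUHRF1 replicate 1 (log2 fold change -0.79, adjusted p = 0.0498). Bak1, the gene of the effector BAK, measured 16.7, 13.7 and 15.6 CPM with the control hairpin and 16.7, 11.7 and 13.6 CPM with shUHRF1, and the groups overlapped. Its log2 fold change was -0.13 ± 0.17 (SE), with a 95% interval of -0.54 to 0.27. Exons of Bak1 overlap those of Ggnbp1 on the opposite strand over 18.2% of their length. Ggnbp1 had 24 to 34 reads in shControl and 56 to 77 in shUHRF1, and Bak1 had 199 to 371 reads. Whether counting used strand is not given, so reads from the shared part may have been left out as ambiguous. The value of Bak1 is uncertain to that extent.

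Bcl2l11 encodes BIM, a BH3-only protein that is induced in sympathetic and sensory neurons deprived of trophic support. The gene (ENSMUSG00000027381.16) lies on chromosome 2, 128126038 to 128162547, plus strand. It had 40, 32 and 63 reads in shControl and 122, 70 and 135 in shUHRF1, or 2.32, 2.07 and 3.01 CPM against 5.48, 4.12 and 6.54 CPM. The lowest shUHRF1 library lay above the highest shControl library, and the level was low in both groups, with a mean above that of 28.5% of tested genes. The estimate was a log2 fold change of 1.12 ± 0.27 (SE), a 2.17-fold rise, with a 95% interval of 0.50 to 1.73 and an edgeR adjusted p of 0.0205. The differences within the replicate numbers were alike, at 1.24, 0.99 and 1.12. It did not hold when 1 of 3 libraries was left out: shControl replicate 1 (log2 fold change 1.05 with adjusted p = 0.0785), shControl replicate 2 (0.99 with 0.0659) or shUHRF1 replicate 3 (0.94 with 0.0802). The counts sum over 8 annotated transcripts, so the long and short forms of BIM cannot be told apart.

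The other BH3-only members were lower in mean but did not pass. Bid, whose protein links death receptors to mitochondria after cleavage by caspase 8, measured 31.2, 33.9 and 35.7 CPM with the control hairpin and 26.5, 21.1 and 29.5 CPM with shUHRF1. These values did not overlap. Its log2 fold change was -0.39 ± 0.15 (SE), with a 95% interval of -0.73 to -0.04 and an edgeR adjusted p of 0.0985. Exons of Bid overlap those of Bcl2l13 on the opposite strand over 17.7% of their length. Bcl2l13 had 1200 to 1698 reads in shControl and 641 to 697 in shUHRF1, and the sources used here do not say whether counting used strand, so the value of Bid is uncertain. Bad, whose protein is held inactive by kinases downstream of growth factors, measured 32.5, 27.6 and 38.3 CPM with the control hairpin and 29.6, 24.1 and 29.7 CPM with shUHRF1, with overlap. Its log2 fold change was -0.24 ± 0.16 (SE), with a 95% interval of -0.60 to 0.13. Bad shares 20.5% of its exonic length with Gpr137 on the opposite strand, which had 1491 to 2590 reads in shControl and 985 to 1267 in shUHRF1, so its value is uncertain in the same way.

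Of the 4 pro-survival genes 0 passed by edgeR, with 0 at an unadjusted p below 0.05 and 0 by DESeq2 or limma-voom. Over all tested genes 24.0% passed by edgeR, so 0 of 4 says little about these genes as a class. Mcl1, the gene of a short-lived pro-survival protein, measured 109.4, 108.4 and 103.8 CPM with the control hairpin and 135.9, 103.0 and 108.9 CPM with shUHRF1, where replicate 1 stood highest. Its log2 fold change was 0.11 ± 0.13 (SE), with a 95% interval of -0.18 to 0.41. Bcl2l2, which encodes BCL-W, a survival factor of adult neurons, had 129.6, 116.0 and 131.4 CPM against 120.8, 101.7 and 133.5 CPM, a log2 fold change of -0.08 ± 0.13 (SE) with a 95% interval of -0.38 to 0.21. For these 2 genes the intervals leave out any rise or fall of 1.5-fold. Bcl2l2 shares 13.3% of its exonic length with the read-through gene Gm20521 on the same strand, which had 0 reads in every library. Reads from the shared part may be among the ambiguous entries left out, so this count does not show that the overlap had no effect.

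Bcl2l1 and Bcl2 were measured less precisely. Bcl2l1, the gene of BCL-XL, which maintains immature neurons, measured 38.0, 23.2 and 45.0 CPM with the control hairpin and 46.2, 21.3 and 38.3 CPM with shUHRF1. Replicate 2 was low in both groups, and the spread within a group exceeded the difference between them: the log2 fold change was -0.01 ± 0.32 (SE), with a 95% interval of -0.74 to 0.73. Bcl2, the founding member, had 79, 86 and 94 reads in shControl and 91, 53 and 98 in shUHRF1, or 4.59, 5.57 and 4.50 CPM against 4.09, 3.12 and 4.75 CPM. Its log2 fold change was -0.29 ± 0.23 (SE), with a 95% interval of -0.83 to 0.25 that allows changes up to a level of 0.563 or 1.19 times that of shControl. Transcripts of the long and short forms of Bcl2l1 and of Mcl1 are summed in these counts.

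**Figure D2:**
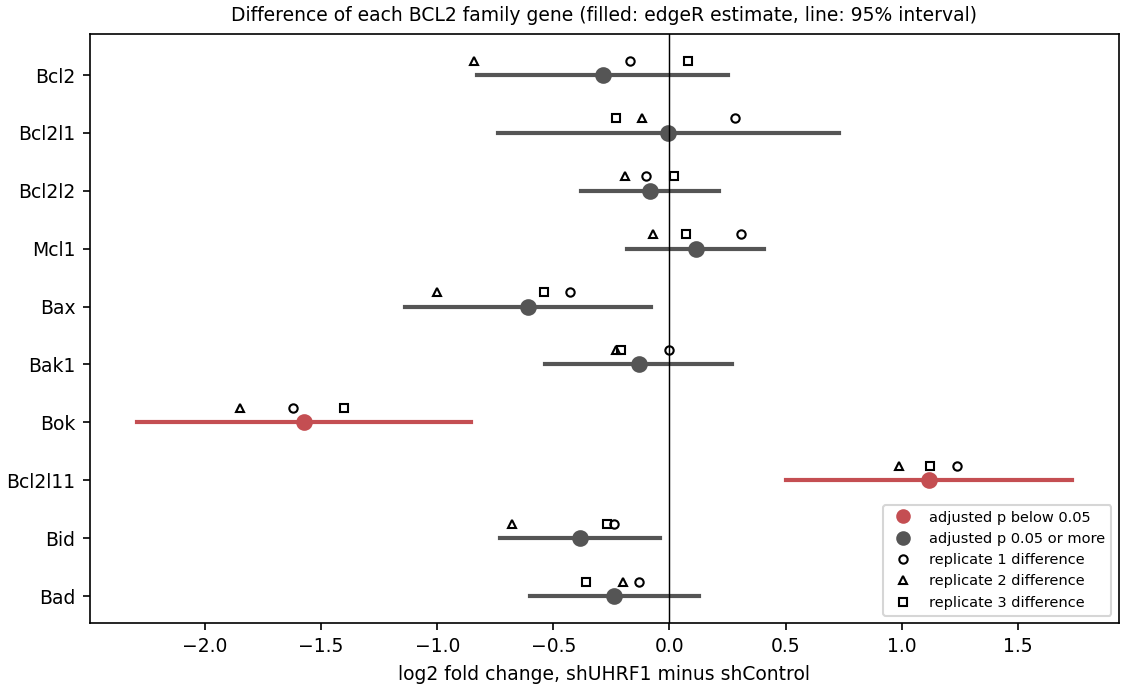
Log2 fold change of each gene (shUHRF1 minus shControl): filled points are edgeR estimates, lines are 95% intervals, and open symbols are the differences within replicate numbers 1, 2 and 3. The intervals of Bok (-2.29 to -0.86) and Bcl2l11 (0.50 to 1.73), in red, mark the genes that passed the test.

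Levels of different genes were compared as CPM per kilobase of merged exons. In shControl Mcl1 was highest at 31.4 ± 0.88 CPM per kb (SD, n = 3), followed by Bcl2l2 at 28.2 ± 1.89, Bax at 24.5 ± 3.05, Bad at 12.8 ± 2.08, Bid at 9.47 ± 0.63, Bcl2l1 at 7.72 ± 2.43, Bak1 at 6.38 ± 0.62 and Bok at 4.50 ± 1.01. Bcl2 and Bcl2l11 were far lower, at 0.533 ± 0.065 and 0.308 ± 0.061 CPM per kb (SD, n = 3). The library values of neighbours overlapped for Bcl2l2 and Bax, for Bid and Bcl2l1 and for Bcl2l1 and Bak1, and did not overlap for the other neighbours in this order. In shUHRF1, Bcl2l11 (0.670 ± 0.151 CPM per kb) and Bcl2 (0.435 ± 0.089 CPM per kb) changed places, as did Bcl2l1 (7.69 CPM per kb) and Bid (7.24 CPM per kb), and the libraries of each pair overlapped. Among the effectors Bok was the least abundant in both groups, at 1.5 ± 0.52 CPM per kb (SD, n = 3) in shUHRF1, where Bax had 16 ± 4.87 and Bak1 5.81 ± 1.04. Merged exons include long alternative 3' ends, so the levels per kb of genes such as Bcl2 (9157 bases merged, 7191 in the longest transcript) and Bcl2l11 (8029 and 5036 bases) can be understated, in both groups.

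As a share of the summed CPM per kb of the 10 genes, the pro-survival genes took 53.6%, 55.6% and 52.8% in shControl and 61.7%, 64.2% and 60.5% in shUHRF1. The effectors took 29.7%, 26.4% and 28.1% against 22.6%, 18.1% and 21.7%, and the BH3-only genes 16.7%, 18.1% and 19.1% against 15.7%, 17.6% and 17.8%. The groups did not overlap for the pro-survival and effector shares. In summed level, however, the pro-survival genes overlapped, at 63.4 to 70.1 CPM per kb in shControl and 57.9 to 77.4 in shUHRF1, whereas the effectors had 30.1 to 38.7 and 16.3 to 28.4 CPM per kb. Most of the effector sum is Bax, whose share was 19.4% ± 1.05 (SD, n = 3) in shControl and 14.2% ± 2.22 in shUHRF1. Bcl2l11 rose from 0.244% ± 0.034 to 0.604% ± 0.083 of the sum, so its change hardly moved the BH3-only share. That share covers only Bcl2l11, Bid and Bad, and other expressed BH3-containing genes such as Bbc3 lie outside it. The log2 ratio of the pro-survival to the effector sum was 0.85, 1.08 and 0.91 in shControl and 1.45, 1.83 and 1.48 in shUHRF1. The difference of the means was 0.64, and 0.65 with the longest transcript as the length. These shares and ratios describe transcripts, not proteins, and were not tested.

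**Figure D3:**
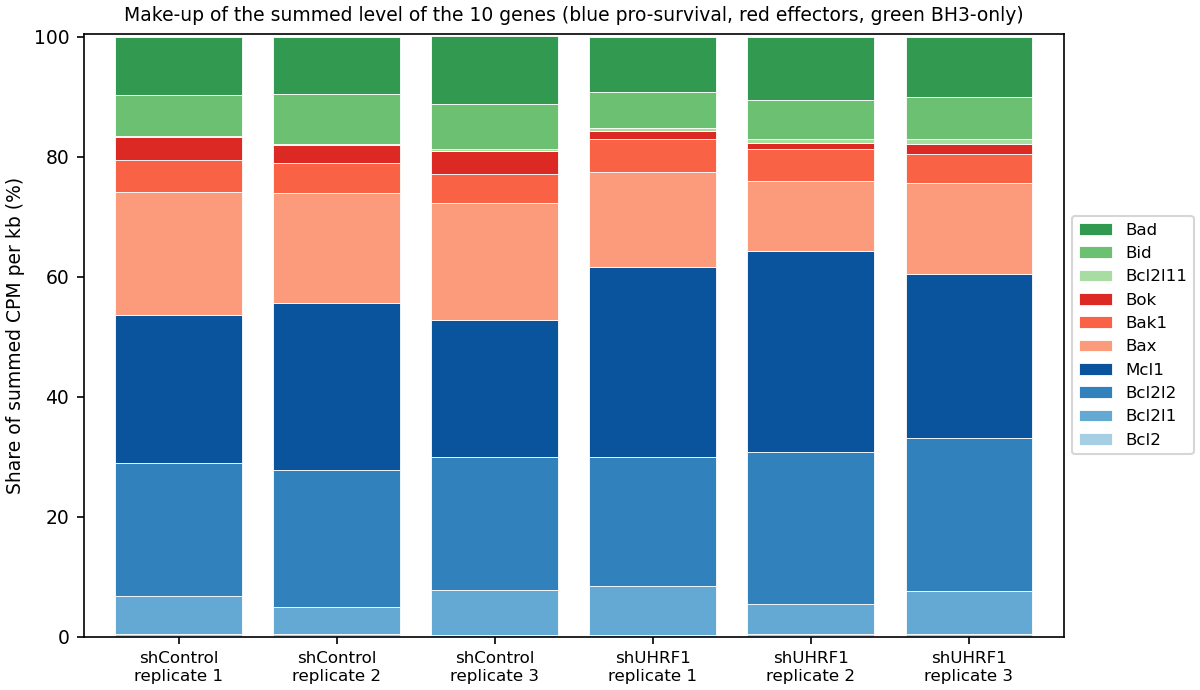
Stacked share (%) of the summed CPM per kb of the 10 genes in each of the 6 libraries, with pro-survival genes in blue, effectors in red and BH3-only genes in green. The red block is 26.4% to 29.7% in shControl and 18.1% to 22.6% in shUHRF1, and the blue block 52.8% to 55.6% and 60.5% to 64.2%.

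The genes around the family were read from 7 lists with 87 listed names, 85 of them matched and 74 tested. Of these 74, 8 rose and 10 fell, or 24.3%, which is close to the 24.0% found over all tested genes. Their median log2 fold change was 0.02. The count of genes that fell was 5 without shControl replicate 1 or 3 and 6 without shUHRF1 replicate 3, and the count that rose was 5 without shControl replicate 3. With upper-quartile scaling 11 rose and 8 fell. Among 8 other BH3-containing genes 6 were tested, 1 rose and 0 fell by edgeR, by DESeq2 or by limma-voom, with 2 lower at an unadjusted edgeR p below 0.05. By edgeR 16.7% of the 6 were called, against 24.0% of all tested genes. The gene that rose was Bmf, which encodes a BH3-only protein linked to detachment from the cytoskeleton. It measured 1.34, 1.17 and 1.34 CPM with the control hairpin and 7.86, 4.77 and 7.12 CPM with shUHRF1. This gave a log2 fold change of 2.36 ± 0.27 (SE, edgeR adjusted p = 0.00154). Its groups were far apart, and it passed in each of the 6 fits with 1 library left out. Bbc3 (PUMA), a p53 target as is Bax, had 45.5 ± 12.4 CPM (SD, n = 3) in shControl and 33.9 ± 8.13 in shUHRF1, and did not pass (log2 fold change -0.42, edgeR adjusted p = 0.233). Trp53, the p53 gene, named after its values were seen, had 10.9 and 17.8 CPM on average and did not pass either (edgeR adjusted p = 0.186). The mitophagy receptor gene Bnip3l and the autophagy gene Becn1 had log2 fold changes of -0.33 and -0.26 and did not pass.

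Of 9 other BCL2 homologues, 3 were tested, 1 rose and 1 fell (66.7% of the 3, against 24.0% of all tested genes). Bcl2l13, whose protein sits in the outer mitochondrial membrane and takes part in mitophagy, fell from 77.5 ± 3.85 CPM (SD, n = 3) to 33.6 ± 4.19 CPM. The log2 fold change was -1.21 ± 0.13 (SE, edgeR adjusted p = 0.00108), and the overlap with Bid touches 6.9% of its exonic length. Bcl2l15 rose from 0.457 to 1.24 CPM (1.44 ± 0.40, SE, edgeR adjusted p = 0.0359), a gene near the filter whose call was lost with DESeq2 (adjusted p = 0.0593) and without any 1 of shControl replicates 1, 2 and 3 (adjusted p = 0.129, 0.06 and 0.142) or shUHRF1 replicates 1 and 2 (0.104 and 0.0643). Bcl2l12, whose exons overlap on the opposite strand those of Gm15545 (28.9% of their length) and Irf3 (4.5%), did not pass (log2 fold change 0.79). Bcl2a1a, Bcl2a1b and Bcl2a1c, pro-survival genes of blood cells, had 0 reads in every library and were named after this was seen. Their relative Bcl2a1d, likewise named afterwards, had 1 read, in shUHRF1 replicate 1. Reads that did not align uniquely were left out, so 0 reads of such related genes need not mean no expression.

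Downstream of the mitochondria, 2 of 11 tested apoptosome and caspase genes rose and 1 fell (27.3% called, near the 24.0% of all tested genes). Apaf1, the scaffold of the apoptosome, rose from 29.6 ± 3.32 CPM (SD, n = 3) to 44.5 ± 8.5 CPM, with a log2 fold change of 0.59 ± 0.16 (SE, edgeR adjusted p = 0.0351), a call lost without shControl replicate 1 or 3 (adjusted p = 0.128 and 0.126) or shUHRF1 replicate 1 or 3 (0.0649 and 0.0718). Parp1, a DNA repair enzyme that caspases cleave, rose from 168.2 to 265.9 CPM (0.66 ± 0.12, SE), and Dffa, the inhibitor of the caspase-activated nuclease, fell from 71.9 to 44.4 CPM (-0.70 ± 0.14, SE). Casp6, a caspase of axon degeneration, had 3.86 and 6.18 CPM and did not pass (edgeR adjusted p = 0.107), but passed with the pairing by replicate number (adjusted p = 0.0411) and without shControl replicate 2 (0.0433). Of 8 tested inhibitor of apoptosis genes and antagonists, 2 rose and 1 fell (37.5% called, against 24.0% of all tested genes). Birc3 (cIAP2) rose from 1.09 ± 0.28 CPM (SD, n = 3) to 5.24 ± 1.43 CPM, with a log2 fold change of 2.26 ± 0.32 (SE, edgeR adjusted p = 0.00299). Diablo, whose protein SMAC antagonises these inhibitors, measured 152.5, 158.7 and 175.4 CPM with the control hairpin and 42.5, 85.6 and 62.7 CPM with shUHRF1, with no overlap (-1.35 ± 0.23, SE, edgeR adjusted p = 0.00612). Its exons overlap over 21.5% of their length with B3gnt4 on the opposite strand, which had 2 to 5 reads per library. Sept4, 1 splice form of which (ARTS) antagonises XIAP, rose from 14.3 to 30.7 CPM (1.10 ± 0.20, SE). Birc2 had a log2 fold change of 0.36 and did not pass (edgeR adjusted p = 0.0705), but passed with the pairing (0.048), with upper-quartile scaling (0.0301) and with the stricter filter (0.0436).

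**Figure D4:**
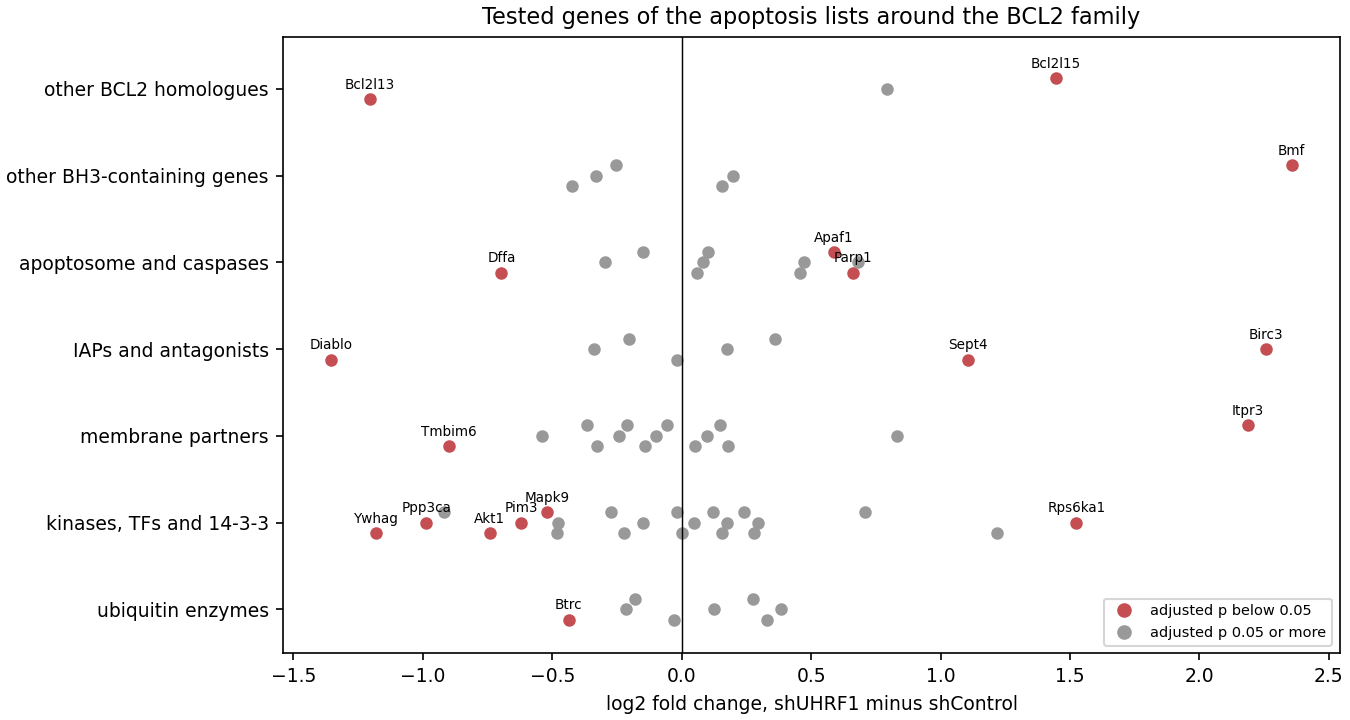
Log2 fold change (shUHRF1 minus shControl) of the 74 tested genes in 7 lists, 1 point per gene, with genes that passed in red and named. Bmf (2.36), Birc3 (2.26) and Itpr3 (2.19) lie farthest to the right and Diablo (-1.35) farthest to the left.

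Among 15 outer membrane and mitochondrial partners 1 rose and 1 fell (13.3% called, against 24.0% of all tested genes). Itpr3, an endoplasmic reticulum calcium channel of the class that BOK and BCL2 bind, rose from 2.42 ± 0.50 CPM (SD, n = 3) to 10.9 ± 6.61 CPM, with a log2 fold change of 2.19 ± 0.43 (SE, edgeR adjusted p = 0.0104). Its values in shUHRF1 were uneven, at 18.4, 5.83 and 8.62 CPM, and without shUHRF1 replicate 1 the log2 fold change was 1.58. Without shControl replicate 3 the adjusted p was 0.0505. Tmbim6 (BAX inhibitor 1) fell from 103.7 to 55.6 CPM (-0.90 ± 0.18, SE). The nuclease gene Endog and the porin gene Vdac3 had log2 fold changes of -0.54 and -0.33 and did not pass. Of 23 tested kinase, transcription factor and 14-3-3 genes that act on the family, 1 rose and 5 fell. Together these are 26.1%, near the 24.0% called over all tested genes. Akt1, a kinase that inactivates BAD, fell from 251.6 CPM on average to 150.6 CPM (-0.74 ± 0.12 on the log2 scale, SE, edgeR adjusted p = 0.00466), and Rps6ka1, another kinase of BAD, rose from 7.28 to 20.9 CPM (1.53 ± 0.27, SE). Mapk9, which encodes the kinase JNK2, and Ywhag, a 14-3-3 gene, fell by 0.52 and 1.18 on the log2 scale. The other 2 that fell, Ppp3ca (-0.99) and Pim3 (-0.62), were named after their values were seen. Calls were lost without shControl replicate 1 for Mapk9, Ywhag, Ppp3ca and Pim3 (adjusted p = 0.0606, 0.0633, 0.0799 and 0.099) and without shControl replicate 3 for the same 4 (0.0617, 0.0739, 0.0744 and 0.168). Ywhag also lost its call without shUHRF1 replicate 1 or 3 (0.0627 and 0.0556), Ppp3ca without shUHRF1 replicate 3 (0.0875), and Pim3 without shUHRF1 replicate 1, 2 or 3 (0.0634, 0.0782 and 0.0653) and with upper-quartile scaling (0.0822). Of 8 ubiquitin ligases and deubiquitinases of family proteins 1 fell (12.5%, against 12.4% lower and 24.0% called over all tested genes), namely Btrc. It went from 166.8 to 123.3 CPM (-0.44 ± 0.13, SE, edgeR adjusted p = 0.0417). This call was lost in 4 of 6 fits with 1 library left out, without shControl replicate 1 or 3 (0.121 and 0.145) or shUHRF1 replicate 1 or 3 (0.087 and 0.119). It was also lost with upper-quartile scaling (0.098) and with the stricter filter (0.0548). Usp9x, which stabilises MCL1, and Fbxw7, which marks it for degradation, had log2 fold changes of 0.28 and 0.38 and did not pass, although Usp9x passed with upper-quartile scaling (adjusted p = 0.0497).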

How the data were processed

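RNA sequencing gave 1 table of raw read counts per library, which the authors deposited per gene. The submitters' processing notes name FastQC, STAR, HTSeq, DESeq2 and the mm10 build; they give no version, annotation release or strand setting. The 5 summary lines that name no gene were left out (8.43% to 17.18% of entries outside genes, 2.12% to 2.27% ambiguous, 30.5% to 37.28% not unique). Symbols, positions and exon lengths came from GENCODE M21 (GRCm38, also called mm10), which matched 47224 of 47643 identifiers.

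From the deposited counts, edgeR 4.0.16 (R 4.3.3) was run with filterByExpr, TMM factors and the two-sided quasi-likelihood F test on group alone, with genes called at a Benjamini-Hochberg adjusted p below 0.05. SEs were derived from the F statistic, and 95% intervals use its degrees of freedom. The script was tested on simulated data. The genes and lists were chosen with earlier results of these data known. Besides the family and Uhrf1, each list named up to 4 genes with the smallest p, and other genes are marked where they occur, apart from cell type markers and genes overlapping in exons. Some list genes are not reported here by name, and list counts include them.

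Libraries with the same replicate number deviated together (correlations 0.33, 0.36 and 0.44 of deviations from group means), a pairing inferred from the data and not stated in the labels. Alternatives were a replicate block, RLE and upper-quartile scaling, other filters, DESeq2 1.42.0, limma-voom (limma 3.58.1), each library left out and, chosen after seeing the data, replicates 1 and 3 alone.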

Additional observations from a re-analysis of the deposited data

How the results depend on the processing

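The called members were steady in direction under every alternative run. Bok passed in all 8 other fits and all 6 with 1 library left out, with log2 fold changes of -1.81 to -1.35. Bcl2l11 passed in all 8 other fits and in 3 of 6 with 1 library left out, where it ranged from 0.94 to 1.28. Bax had log2 fold changes of -0.65 with the replicate block and -0.64 with no low-count filter, passing in both, and -0.79 to -0.41 with 1 library left out. The count of lower members was therefore 2 with the replicate block and with no low-count filter, and 1 to 2 with 1 library left out, and the count of higher members 0 to 1. The block changed no other call of a member. With upper-quartile scaling the all-gene median of the log2 fold change was 0.142, against 0.017, and relative to it Bok and Bcl2l11 kept their directions. With 1 library left out, all-gene calls ranged from 1768 (without shControl replicate 3) to 3888, with 2018 without shControl replicate 1 and 2171 without shUHRF1 replicate 3, higher calls from 822 to 1814 and lower calls from 946 to 2074, and in the 7 lists 5 to 8 genes rose and 5 to 12 fell; smaller fits lose residual degrees of freedom. Counting error bears on Bok, Bcl2l11 and Bcl2, with 29 to 198 reads per library.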
